A study of Sus scrofa with 12 samples.

Results

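The miRNAs described here are miR-335, miR-483, miR-675, miR-296 and miR-298, which derive from imprinted loci. They were chosen by name from the list of miRNAs, by a rule that uses no measured value, and 10 of the 1452 listed miRNAs carried one of these names. From the MEST locus there were 3 (ssc-miR-335, miR-335-x and miR-335-y), from the IGF2 locus 2 (miR-483-y and miR-483-z) and from the GNAS locus 5 (ssc-miR-296-3p, ssc-miR-296-5p, miR-296-x, miR-296-y and miR-298-x). The miRNA of H19, miR-675, matched 0 rows, and the H19 locus was not analysed here. Pig names were carried by 3 of the 10 and names without a species by 7, and 6 of the 10 were counted in all 12 libraries.

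Small RNA was sequenced from whole testes of Hezuo (HZ) boars, a small native breed of early sexual maturity, and of Landrace (LC) boars, which served as the control. The 12 libraries formed 4 groups of 3, namely HZ boars at 30 days (Ha) and at 120 days (Hb) and LC boars at 30 days (La) and at 120 days (Lb). No group had received a treatment according to the labels. The methods give 3 boars for each breed and age, and total RNA that came from pooled samples. An SD or a p-value here therefore measures the spread between libraries. Whether a library stands for 1 boar is not given in the sources used here.

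An imprinted gene is expressed from the copy of 1 parent, and many imprinted genes act on growth before and after birth. MEST (also called PEG1) and IGF2, a growth factor, are expressed from the paternal copy in most tissues, whereas H19 is expressed from the maternal copy of the same domain as IGF2. GNAS encodes the stimulatory G protein alpha subunit, through which the receptors of luteinizing and follicle-stimulating hormone signal in the testis, and miR-296 and miR-298 come from a transcript antisense to this complex locus in mammals. In mammals miR-335 lies in an intron of MEST and miR-483 in an intron of IGF2. A miRNA hairpin gives 2 mature products, 1 from its 5p arm and 1 from its 3p arm, and bases 2 to 8 of a mature product (the seed) pair with its target mRNAs.

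The mature sequences of the 10 miRNAs are shown because the names alone do not tell which entries are near copies of each other. They are given 5′ to 3′ as in the deposited list, with the seed in capitals.
ssc-miR-335: tCAAGAGCaataacgaaaaatg
miR-335-x: tCAAGAGCaataacgaaaaatgta
miR-335-y: tTTTTCATtattgctcctgacc
miR-483-y: cACTCCTCtcctcccgtcttcc
miR-483-z: tCACTCCTctcctcccgtcttcct
ssc-miR-296-5p: gAGGGCCCcccccaatcctgt
miR-296-x: gAGGGCCCcccccaatcctgaa
ssc-miR-296-3p: aGGGTTGGgcggaggctttcc
miR-296-y: aGGGTTGGgcggaggctttcctt
miR-298-x: gGCAGAGGagggctgttcttcc

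Each of ssc-miR-335, ssc-miR-296-5p and ssc-miR-296-3p had a partner of the same seed that lay 2 edits away at its 3′ end, so tags of 1 arm may be divided between the entries. The longer miR-483-z begins 1 base before miR-483-y, which shifts its seed by 1 base, and the pair again lay 2 edits apart. In each pair 1 entry held most of the counts of the arm: 99.8% for ssc-miR-335, 92.0% for ssc-miR-296-3p, 91.1% for ssc-miR-296-5p and 92.0% for miR-483-y. No other listed miRNA had the seed of a MEST or GNAS entry, and the seed of miR-483-y occurred in 1 other listed miRNA.

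In the Sscrofa11.1 annotation of RefSeq, which holds gene bounds but no exons, MIR335 lay within MEST, at chr18:18341580-18341659. MIR296 was annotated at chr17:58970316-58970392, which is 15188 bases outside the bounds of GNAS. The entries of miR-483 and miR-298 had no position under their own names. However, 2 hairpins that the authors predicted on the minus strand lay inside the bounds of IGF2, m0045 at chr2:1473430-1473491 and m0066 at chr2:1474435-1474496. The sequence of hairpin m0045 ends, from base 40 to base 61, with the whole of miR-483-y, so the listed m0045-5p is the opposite arm of the hairpin that holds miR-483-y. The sequence of this hairpin is given with both products in capitals. Both predicted miRNAs were listed from their 5p arms and are given beside miR-483, though they are not among the 10. They were chosen for their position and sequence after the files had been opened.
m0045-5p: aGGACGGGaagagaggagggcg
m0066-5p: aGCCAGGGctgcaggcactgac
hairpin m0045: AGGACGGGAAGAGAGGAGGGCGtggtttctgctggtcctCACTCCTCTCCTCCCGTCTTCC

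The libraries held 6520197 to 16874633 counts on listed miRNAs, of which the 10 took from 0.0218% in Hb2 to 0.0667% in Hb1. A floor of 3 counts corresponded to 0.158 to 0.404 TPM (the level as normalised by the authors to library size), and it covers counting error only, since PCR copies of a molecule were counted as tags of their own. Replicates differed by more than the sampling noise, most of all in Hb (chi-square per degree of freedom of up to 1178), and Hb2 was the lowest library of the 12 for ssc-miR-335, miR-335-y, ssc-miR-296-3p, miR-296-y, ssc-miR-296-5p and miR-483-y by TPM. The factor by which edgeR corrects the library size (trimmed mean of M values, TMM) was 0.694 in Hb2 and 0.910 to 1.195 in the other 11 libraries. With TPM divided by this factor, Lb3 and not Hb2 was the lowest for ssc-miR-335, and by the factors of Hb vs. Lb alone Hb2 was not the lowest for ssc-miR-296-3p either. Levels below are TPM as deposited, while fold changes are on the TMM scale. Tests that involve Hb are therefore given with and without Hb2 for the entries that reached 1 TPM on average in any group.

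Markers of meiotic and haploid germ cells (miR-34 and miR-449, 7 entries) were higher at 120 days, with no overlap between the ages. They summed to 29.8 to 92.4 TPM in Ha and 20.2 to 30.5 in La, with 1 entry at 0 in Ha and 2 in La, against 12608 to 15525 in Lb and 7356, 3004 and 14794 in Hb1, Hb2 and Hb3. The gonad was marked by miR-202, a miRNA of its supporting cells (5 entries), which summed to 18675 to 21867 TPM in Ha, 15272 to 17278 in La and 17966 to 24405 in Lb. In Hb1, Hb2 and Hb3 it summed to 17266, 9608 and 16387 TPM, below every Ha and every Lb library. By the histology of the paper, supporting (Sertoli) cells were more numerous at 120 than at 30 days in both breeds. Their mean count was highest in Hb, though Hb and Lb did not differ significantly there. Spermatogenic cells were more numerous in Hb than in Lb by the same histology. Smooth muscle markers (miR-143 and miR-145, 9 entries) summed to 20687 to 36347 TPM at 30 days and 55596 to 92500 at 120 days, and striated muscle markers (11 entries) to 109 to 285 and 453 to 846 TPM. Leukocyte markers (9 entries) summed to 1040 to 1087 TPM in Ha, 417 to 869 in Hb, 1300 to 1441 in La and 759 to 1177 in Lb. For erythroid markers (10 entries) the sums were 1357 to 1768 TPM in Ha, 863 to 2298 in Hb, 2201 to 2468 in La and 1220 to 1272 in Lb. Epithelial markers (8 entries) lay between 52.4 and 380.3 TPM, with overlap of the ages in both breeds. The part of these cell types in the results below was not tested, and in bulk tissue fewer cells of a type and less miRNA per cell cannot be told apart.

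The 10 miRNAs spanned a wide range of expression. A tag covers a whole mature miRNA, so TPM is not divided by length. By mean over the 12 libraries, ssc-miR-296-3p (151 TPM, rank 178 of 1452), ssc-miR-335 (139 TPM, rank 187) and miR-335-y (94.3 TPM, rank 217) were the most abundant. The levels of miR-296-y (12.8 TPM), ssc-miR-296-5p (3.79 TPM) and miR-483-y (3.04 TPM) were intermediate. At 0.995 TPM, miR-298-x rested on 129 counts in all, and miR-296-x, miR-335-x and miR-483-z stayed under 1 TPM in every library with 52, 37 and 37 counts.

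Changes were tested on the counts by the quasi-likelihood (QL) test of edgeR, with Benjamini-Hochberg adjustment over all miRNAs tested in the comparison, and are given with their standard error (SE). All 10 were tested each time, and log2 fold changes are those of the group named last over the group named first. At the thresholds of the study (absolute log2 fold change above 1 and unadjusted p under 0.05), 2 of the 10 were called in Ha vs. Hb (39.6% of all miRNAs) and 0 in La vs. Lb (32.1% of all). Between the breeds, 1 was called at 30 days (9.47% of all) and 1 at 120 days (16.8% of all). By an adjusted p under 0.05, 1 changed in Ha vs. Hb (34.3% of all), 2 changed in La vs. Lb (40.2%), and between the breeds 1 changed at each age (11.3% at 30 days and 3.25% at 120 days). In La vs. Lb the 0 calls stand beside 2 miRNAs with an unadjusted p under 0.05, both under the fold threshold, and beside 1 call each by limma and with scaling by library size. The median log2 fold change of the 10 was -0.19 in Ha vs. Hb, where that of all miRNAs was 0.32. In La vs. Lb it was 0.08 against 0.32. Between the breeds it was 0.25 against -0.01 at 30 days and 0.44 against 0.06 at 120 days. The medians of all depended on miRNAs of few counts, which edgeR's filterByExpr leaves out. Over the 723 to 805 miRNAs it kept, they were 0.05, 0.08, -0.03 and -0.0005 in the same order. Thus 6 of the 10 gave neither a call nor an adjusted p under 0.05 in any comparison, and the changes fell on miR-335 and miR-483. The comparisons share groups and are not independent of each other.

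**Figure D1:**
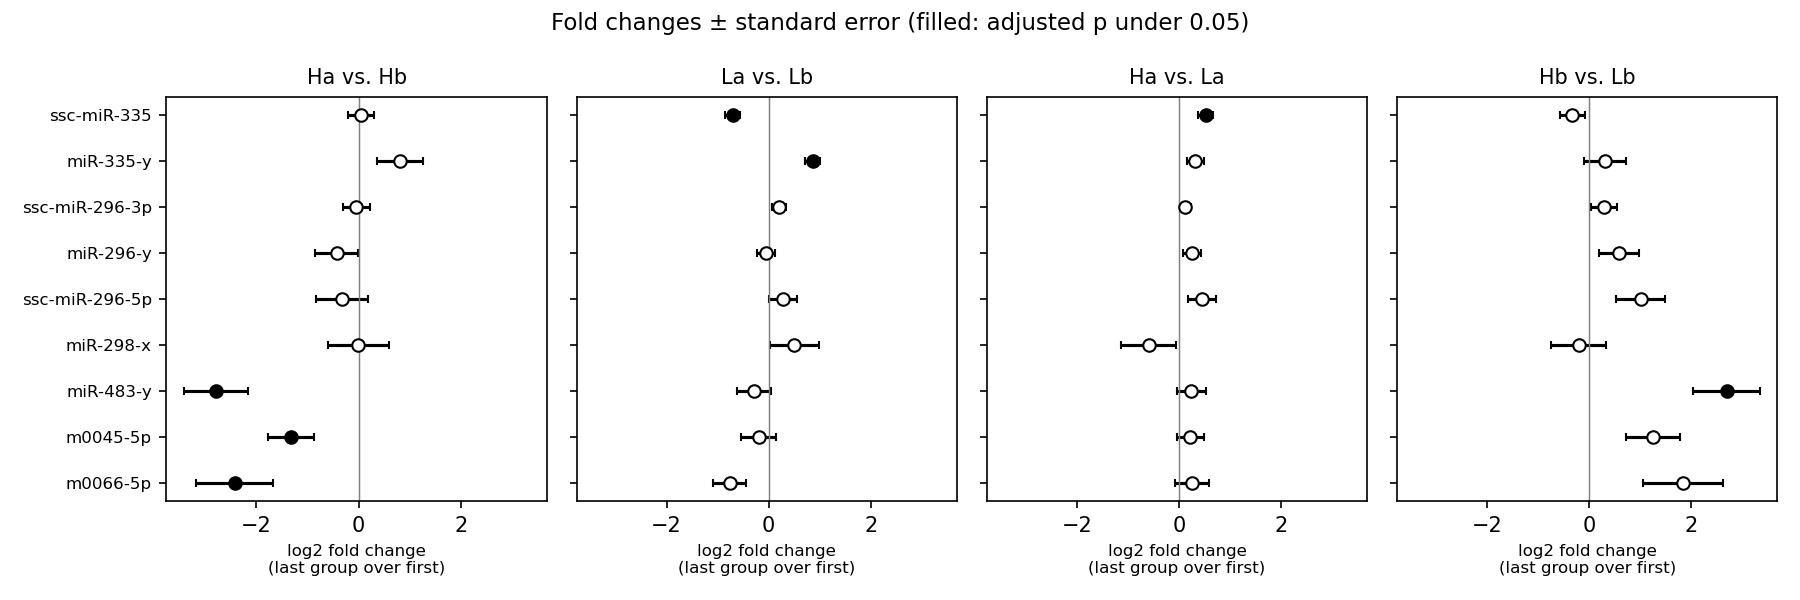
Log2 fold change (x axis, last group over first) of the 7 miRNAs that reached 1 TPM on average in any group and of the 2 predicted miRNAs of IGF2, in the 4 comparisons. Points are fitted values, bars are standard errors, and filled points have an adjusted p under 0.05. The IGF2 entries lie far below 0 in Ha vs. Hb and above 0 in Hb vs. Lb, and the arms of miR-335 lie on opposite sides of 0 in La vs. Lb.

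At the MEST locus, both arms of miR-335 changed with age in LC boars, in opposite directions. The 5p product, ssc-miR-335, which is known as a suppressor of tumour cell migration, fell, and the 3p product, miR-335-y, rose. In HZ boars neither arm passed the test.

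The expression of ssc-miR-335 was 206.3, 149 and 175 TPM in La1, La2 and La3 and 122.7, 135 and 109.9 TPM in Lb1, Lb2 and Lb3. All La libraries lay above all Lb libraries. The means were 177 ± 28.8 TPM (SD, n = 3) and 122 ± 12.4, and the log2 fold change was -0.71 (SE 0.145, edgeR QL adjusted p = 0.00198). This fall kept an adjusted p under 0.05 under every alternative run.

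In HZ boars, ssc-miR-335 was at 115, 125 and 151 TPM in Ha1, Ha2 and Ha3 and at 162, 85.8 and 132.7 TPM in Hb1, Hb2 and Hb3. The ages overlapped, since by TPM Hb held both the highest and the lowest of these 6 libraries. Divided by the TMM factors of the test, the levels were 107, 124 and 145.3 in Ha and 132, 120 and 132.97 in Hb, so that Ha held both extremes. The log2 fold change was 0.04 (adjusted p = 0.904 in the same test) and 0.12 without Hb2 (adjusted p = 0.726). The interaction of breed and age over the 12 libraries was -0.80 on the log2 scale, with an unadjusted p of 0.00764 and an adjusted p of 0.0940, and -0.79 without Hb2 (0.0764). With scaling by library size it was -0.47 (unadjusted p = 0.208, adjusted p = 0.520).

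The order of the groups by mean ssc-miR-335 was La, Ha (130.4 ± 18.9 TPM; SD, n = 3), Hb (126.99 ± 38.6) and Lb. La and Ha, neighbours in this order, differed by a log2 fold change of 0.52 (SE 0.141, edgeR QL adjusted p = 0.0272), although La2 lay below Ha3 by TPM (on the TMM scale every La library was above every Ha library). This difference was lost, with adjusted p from 0.0661 to 0.175, without any 1 of Ha1, Ha2, La1 and La3. The same held with library size scaling, limma, edgeR's filterByExpr and all 12 libraries in 1 fit (adjusted p 0.0569 to 0.200). Neither Ha and Hb nor Hb and Lb passed the test (-0.33, adjusted p = 0.467, for the latter, and -0.29, adjusted p = 0.472 without Hb2), and Hb and Lb overlapped by TPM but not on the TMM scale, where Hb was above. Erythroid and leukocyte markers were higher in every La library than in every library of Ha and Lb (erythroid 2201 to 2468 TPM in La, at most 1768 in Ha and 1272 in Lb). Their part in these differences was not tested.

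The opposite arm, miR-335-y, had 72.4, 68.5 and 66.1 TPM in La1, La2 and La3 and 140.8, 159 and 124 TPM in Lb1, Lb2 and Lb3. The La libraries lay close together, and every Lb library was above them. The means were 69.0 ± 3.21 TPM and 141.3 ± 17.4 (SD, n = 3), and the log2 fold change of 0.86 (SE 0.139) had an edgeR QL adjusted p of 0.000330. With all 12 libraries in 1 fit, which takes in the spread of Hb, the adjusted p was 0.129. With scaling by library size, which moved the median of all miRNAs from 0.32 to 0.54 in this comparison, the log2 fold change was 1.07.

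In HZ boars, miR-335-y was at 44.99, 57.7 and 73.0 TPM in Ha1, Ha2 and Ha3. In Hb1, Hb2 and Hb3 it was at 213, 24.5 and 87.7 TPM. Hb2 lay below all Ha libraries and the other two lay above them. The log2 fold change was 0.82 (SE 0.452, edgeR QL adjusted p = 0.178), and without Hb2 it was 1.25 (adjusted p = 0.000468), a call at the thresholds of the study. Without Hb1 it was 0.24 (unadjusted p = 0.507). The order of the groups by mean was Lb, Hb (108 ± 95.8 TPM; SD, n = 3), La and Ha (58.6 ± 14.01), and between the breeds neither age gave a difference that passed the test (log2 fold change 0.32, adjusted p = 0.255 at 30 days, and 0.31, adjusted p = 0.701 at 120 days). At 30 days the value was 0.52 (adjusted p = 0.00193) without Ha3 and 0.12 (adjusted p = 0.751) without Ha1. The sign of the difference at 120 days depended on single libraries, since it was -0.07 (adjusted p = 0.924) without Hb2 and 0.95 (unadjusted p = 0.0164, adjusted p = 0.0937) without Hb1. The interaction was -0.02 (adjusted p = 0.9999), with -0.36 (0.614) without Hb2 and 0.66 (0.353) without Hb1.

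The third entry, miR-335-x, which shares the seed of ssc-miR-335, was counted 1 time in the 3 Ha libraries and 17 times in those of La, and 10 times in Hb and 9 times in Lb. It was called in Ha vs. Hb (log2 fold change 3.30, adjusted p = 0.0914 in the same test) and in Ha vs. La (3.46, adjusted p = 0.0600). The ratio of its summed counts per listed count was 13.0 in both comparisons, with 95% exact binomial intervals from 1.85 to 565 and from 2.03 to 542.7 that cover counting error only and not the spread between libraries. These calls rested on the single count in Ha. In Ha vs. Hb the call was lost with DESeq2, with limma, with the replicate number as a block and without any 1 of Ha1, Ha3 and Hb3, and without Hb2 the adjusted p was 0.0226. The fold change there was 5.01 without Ha2 and 2.16 without Hb3. In Ha vs. La it was 5.49 without Ha2, and the call was lost with limma. With its counts added to those of ssc-miR-335 neither call remained.

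**Figure D2:**
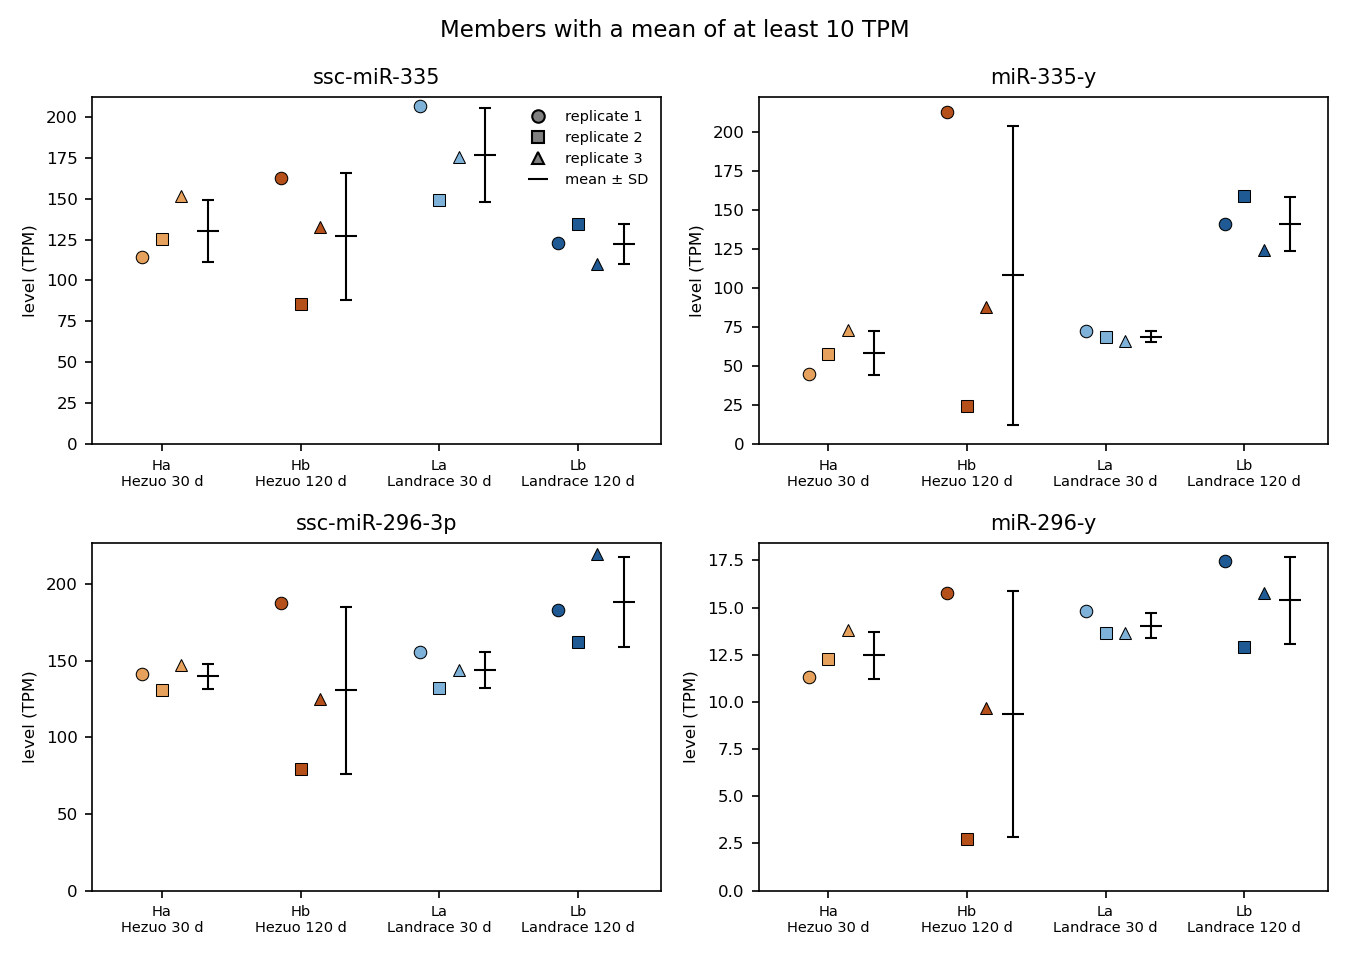
Level (TPM, y axis) of the 4 miRNAs whose mean reached 10 TPM in each library of Ha, Hb, La and Lb. Symbols mark the replicate, and the cross bars give the mean and SD of 3 libraries. For miR-335-y the Lb libraries lie at 124 to 159 TPM above the La libraries at 66.1 to 72.4 TPM, and in all 4 panels Hb is the widest group, with Hb2 as its lowest library.

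Since both arms of miR-335 come from 1 hairpin, their ratio within a library does not depend on the scaling between libraries. The log2 ratio of 5p to 3p counts averaged 1.17 ± 0.155 (SD, n = 3) in Ha, 1.34 ± 0.203 in La and -0.20 ± 0.0320 in Lb. In Hb it was -0.39, 1.80 and 0.60 in Hb1, Hb2 and Hb3. The 5p arm was thus the more abundant in all 6 libraries at 30 days, whereas the 3p arm was the more abundant in all 3 Lb libraries and in Hb1. The difference between the ages, 120 minus 30 days, was -1.03 on the log2 scale. An exact two-sided permutation of ages within breeds (400 arrangements, smallest p 0.005) gave p = 0.03, which was 0.09 after adjustment over 6 tests of arm ratios. The same exact permutation test gave -0.76 (p = 0.06) without Hb1 and -1.31 (p = 0.005) without Hb2. Between the breeds the difference was -0.35 (exact permutation p = 0.395), with -0.07 (p = 0.87) without Hb2 and -0.62 (p = 0.11) without Hb1.

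**Figure D3:**
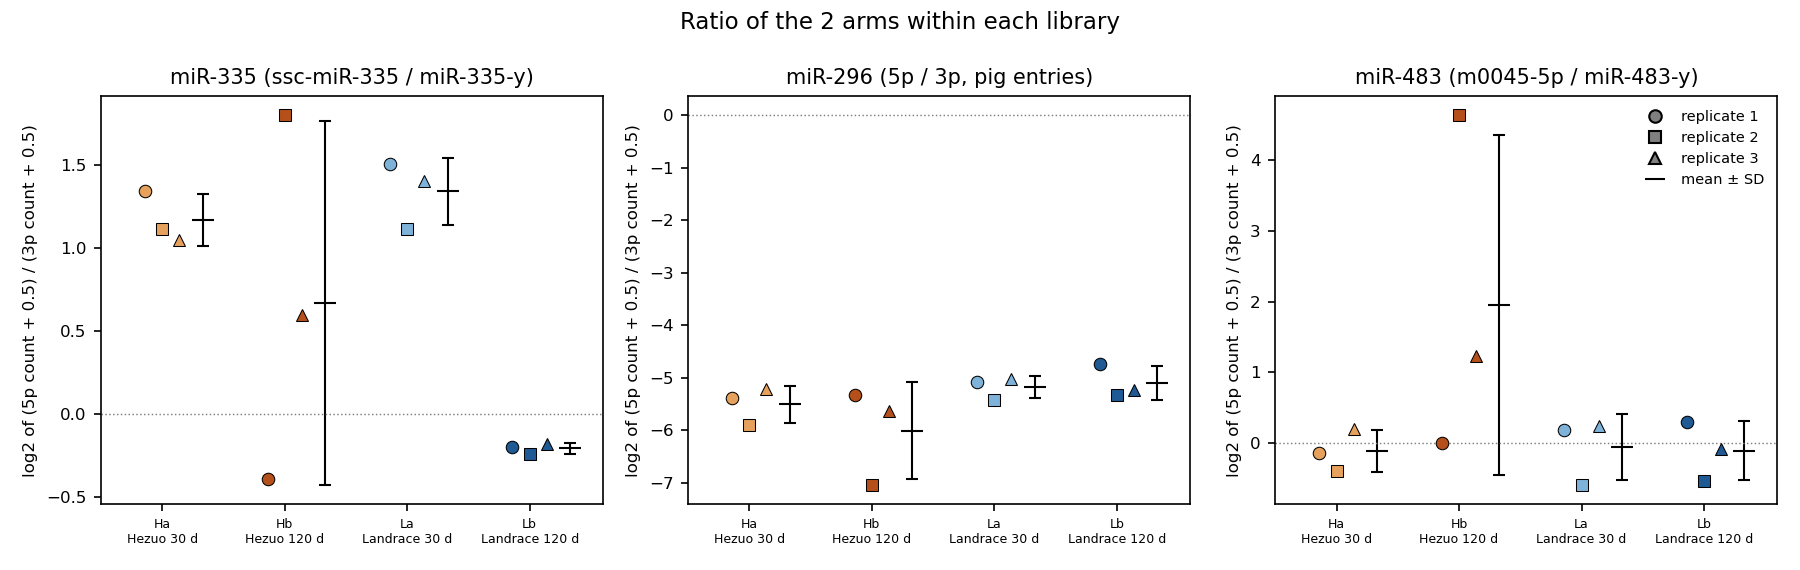
Log2 ratio of 5p to 3p counts (y axis, 0.5 added to each count) within each library for miR-335, miR-296 and miR-483, by group. The dotted line marks equal counts, symbols mark the replicate, and the cross bars give the mean and SD of 3 libraries. The miR-335 ratio of every library at 30 days lies above the line and that of every Lb library below it, and the miR-296 ratio lies below the line in all 12 libraries.

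At the IGF2 locus, miR-483-y, the 3p product, known as a regulator of proliferation and growth that is co-expressed with its host gene, was low in HZ boars at 120 days. It fell from Ha to Hb and was higher in Lb than in Hb. It was counted 43, 33 and 40 times in Ha1, Ha2 and Ha3, but 8, 0 and 4 times in Hb1, Hb2 and Hb3. In La1, La2 and La3 it was counted 46, 61 and 51 times, and in Lb1, Lb2 and Lb3 it was counted 65, 25 and 50 times. Hb was the only group with a library under 25 counts, and it did not overlap with Ha or Lb.

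As TPM, miR-483-y was at 3.96, 3.35 and 3.70 in Ha and at 1.08, 0 and 0.515 in Hb, where the count of 0 in Hb2 allows a level of up to 0.327 TPM. In La it was at 4.01, 5.78 and 2.69 TPM and in Lb at 4.30, 2.62 and 4.45 TPM. The 30-day means were 3.67 ± 0.309 TPM (SD, n = 3) for Ha and 4.16 ± 1.55 for La. Those at 120 days were 0.534 ± 0.534 for Hb (with the count of 0 as 0.01 TPM, as deposited) and 3.79 ± 1.02 for Lb. By order of the means, La, Lb and Ha did not differ beyond their spread, and Hb stood below all 3.

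From Ha to Hb the log2 fold change of miR-483-y was -2.79 (SE 0.629, edgeR QL adjusted p = 0.00384). Under all alternatives run it stayed between -3.49 and -1.67, with adjusted p from 0.000345 to 0.0162, and without Hb2 it was -2.27. From Hb to Lb it was 2.69 (SE 0.655, edgeR QL adjusted p = 0.0429). Without Hb2 this was 2.23 (adjusted p = 0.0482). Adjustment left it above 0.05 without Hb3 (0.162), without Lb1 (0.147), with scaling by library size (0.139), with limma (0.0895) and with filterByExpr (0.0606), while the call at the thresholds of the study held in all of these. Neither La vs. Lb (-0.29, adjusted p = 0.519) nor Ha vs. La (0.25, adjusted p = 0.644) passed the test. The interaction was 2.43 on the log2 scale, with an unadjusted p of 0.00407 and an adjusted p of 0.0807. Without Hb2 it was 2.02 (adjusted p = 0.0723) and without Hb1 3.26 (adjusted p = 0.0166).

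The longer entry miR-483-z had 11, 2, 10 and 14 counts in the 3 libraries of Ha, Hb, La and Lb. At 0 or 1 count a library, Hb was again below every Ha and every Lb library, though no comparison passed the test (edgeR QL adjusted p = 0.229 in Ha vs. Hb and 0.355 in Hb vs. Lb). The ratio of its counts per listed count was 0.237 in Ha vs. Hb (95% exact interval 0.0255 to 1.08) and 4.81 in Hb vs. Lb (1.10 to 43.6), with intervals that again cover counting error only.

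The products of the predicted hairpins of IGF2 had a similar pattern. The opposite arm m0045-5p was counted 39, 25 and 46 times in Ha and 8, 12 and 10 times in Hb. In La it was counted 52, 40 and 60 times and in Lb 80, 17 and 47 times. The Hb libraries, at 1.08, 1.31 and 1.29 TPM, lay under all others, of which the lowest was Lb2 at 1.78 TPM. On the TMM scale they lay under all Ha libraries but overlapped with Lb, since Hb2 (2.19) was above Lb2 (1.59). The log2 fold change from Ha to Hb was -1.33 (SE 0.454, edgeR QL adjusted p = 0.0369), and without Hb2 it was -1.58 (adjusted p = 0.00949). The adjusted p was above 0.05 with DESeq2 (0.0552), with scaling by library size (0.0504) and with the replicate number as a block (0.0640). The same held without any 1 of the other 5 libraries (0.0631 to 0.149), and the call was lost with limma and without Ha3 or Hb1. From Hb to Lb it was called (log2 fold change 1.25, unadjusted p = 0.0343) but did not hold after adjustment (0.192), and without Hb2 it was 1.62 (adjusted p = 0.149). The call was lost without Hb1 (0.98, unadjusted p = 0.105), Lb1 (0.93, 0.165), Hb3 (0.0730) or Lb3 (0.0737) and with DESeq2 (0.0522).

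The other hairpin, m0066, gave 35, 15 and 15 counts of its 5p product in Ha and 0, 4 and 4 in Hb. In La it gave 24, 23 and 49 counts and in Lb 24, 11 and 21. Hb again lay below every other library. The log2 fold change from Ha to Hb was -2.42 (SE 0.756, edgeR QL adjusted p = 0.0244), with -2.93 without Hb2 and -1.18 with limma on log2(TPM + 1). Its adjusted p was 0.108 without Ha1 and 0.0659 with the replicate number as a block. From Hb to Lb the log2 fold change was 1.83 (unadjusted p = 0.0361, adjusted p = 0.199), and 2.44 without Hb2 (adjusted p = 0.190). The call was lost without Hb1 (1.16, unadjusted p = 0.0880), Lb1 (0.0753) or Lb3 (0.0770), with DESeq2 (0.0525) and with limma (0.96). In LC boars m0066-5p was lower in every Lb library than in every La library, at -0.76 with an adjusted p of 0.0832. The interaction was 1.63 (adjusted p = 0.267), and for m0045-5p it was 1.08 (adjusted p = 0.293). Without Hb2 these were 2.23 (0.170) and 1.43 (0.173), and without Hb1 0.97 (0.384) and 0.85 (0.400).

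**Figure D4:**
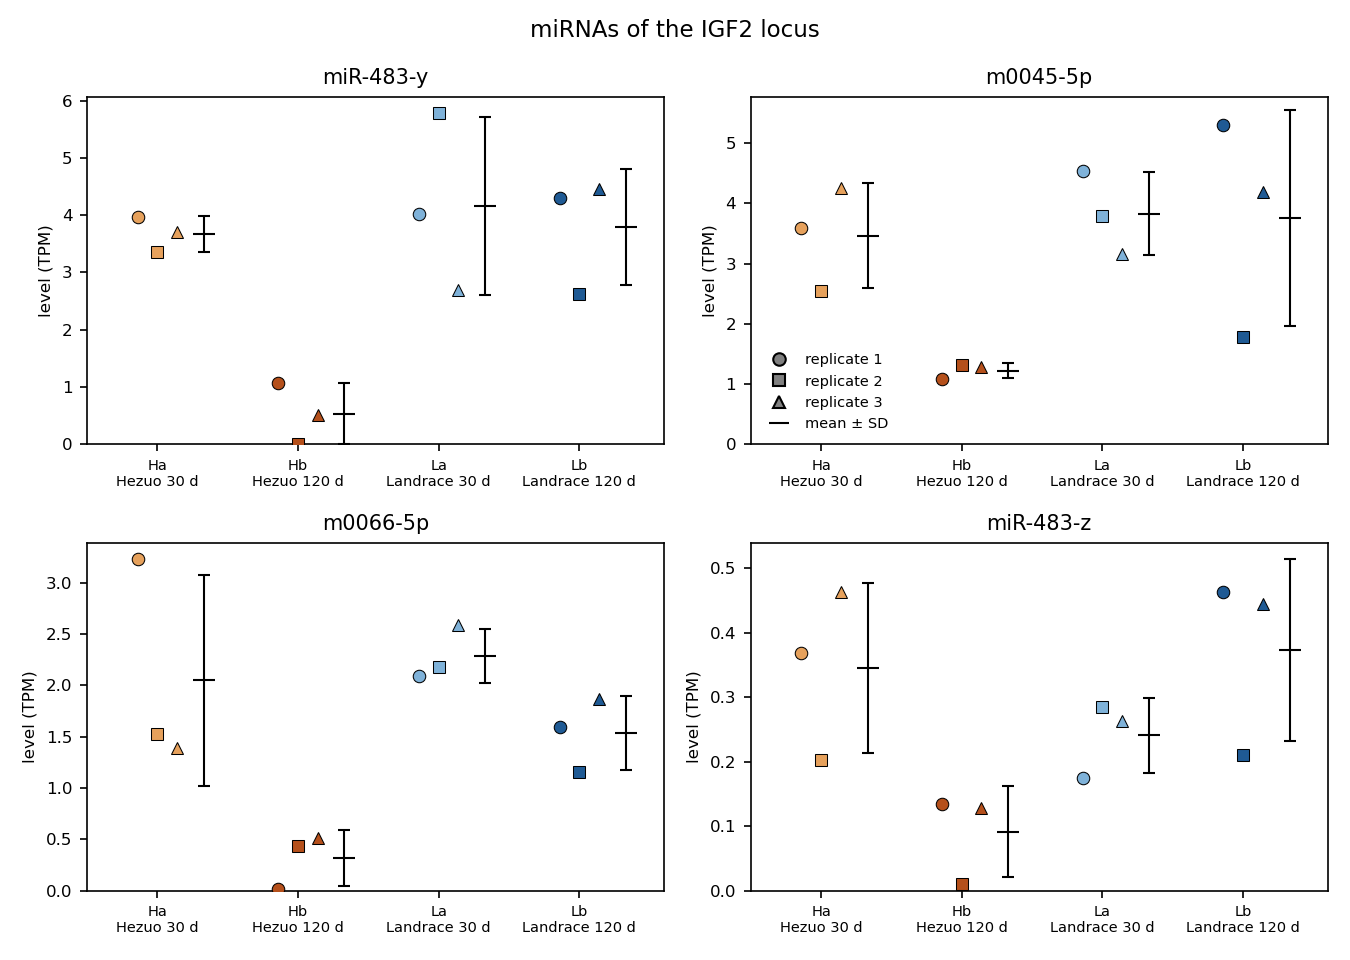
Level (TPM, y axis) of miR-483-y, miR-483-z and the 5p products of the 2 predicted hairpins within IGF2 in each library of Ha, Hb, La and Lb. Symbols mark the replicate, and the cross bars give the mean and SD of 3 libraries. In all 4 panels the Hb libraries lie below every library of Ha and Lb, and for miR-483-y they lie between 0 and 1.08 TPM.

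Within the hairpin of miR-483 the arms were about equally abundant outside Hb. The log2 ratio of m0045-5p to miR-483-y counts was -0.11 ± 0.297 (SD, n = 3) in Ha, -0.07 ± 0.466 in La and -0.11 ± 0.421 in Lb. In Hb it averaged 1.96 ± 2.41, where the count of 0 for miR-483-y in Hb2 gave a ratio of 4.64 that depends on the 0.5 added to each count. Neither age (1.01, exact permutation p = 0.205) nor breed (-1.01, exact permutation p = 0.215) made a difference that passed the test. Without Hb2 the exact permutation test gave 0.34 (p = 0.36) for age and -0.34 (p = 0.375) for breed, and without Hb1 1.499 (p = 0.055) and -1.499 (p = 0.06).

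Markers of other cell types also differed between these groups. The gonad marker miR-202, like miR-483-y, was lower by TPM in every Hb library than in every library of Ha and Lb, and both were lowest in Hb2. On the TMM scale the miR-202 sums of Hb and Lb overlapped. Leukocyte markers summed to 1040 to 1087 TPM in Ha and 417 to 869 in Hb, without overlap, and to 759 to 1177 in Lb, which overlapped with Hb. Germ cell markers were at 29.8 to 92.4 TPM in Ha, and their values in Hb (3004 to 14794 TPM) overlapped with those in Lb (12608 to 15525). The part of these cells in the low level of the IGF2 entries in Hb was not tested.

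At the GNAS locus, no entry passed the adjusted test in any comparison. The 3p product ssc-miR-296-3p was at 141.3, 131 and 147 TPM in Ha1, Ha2 and Ha3 and at 188, 79.4 and 125 TPM in Hb1, Hb2 and Hb3. In La1, La2 and La3 it was at 156, 132.4 and 143.8 TPM and in Lb1, Lb2 and Lb3 at 183, 162 and 219.7 TPM. Each Lb library was above each La library by TPM but not on the TMM scale, while the Hb libraries spread over a range wider than that of all 30-day libraries.

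The means of ssc-miR-296-3p were 139.9 ± 8.12 TPM (SD, n = 3) for Ha and 143.9 ± 11.6 for La, and 131 ± 54.4 for Hb and 188 ± 29.2 for Lb. In order, Lb, La, Ha and Hb had no neighbours that differed past the test. The log2 fold change was 0.21 in La vs. Lb (SE 0.135, edgeR QL adjusted p = 0.249) and 0.42 with scaling by library size (adjusted p = 0.0302), with the shift of all miRNAs given above for that scaling. In HZ boars it was -0.04 (adjusted p = 0.906) and 0.08 without Hb2. Between the breeds it was 0.13 at 30 days (0.541) and 0.29 at 120 days (0.540), with 0.26 without Hb2. The interaction was 0.19 (0.771), and 0.16 without Hb2.

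The longer 3p entry miR-296-y followed at a lower level, with 11.3, 12.3 and 13.8 TPM in Ha and 15.8, 2.73 and 9.65 TPM in Hb. In La it was at 14.8, 13.7 and 13.7 TPM and in Lb at 17.5, 12.9 and 15.8 TPM. Apart from Hb2 and Hb3, all libraries lay between 11.3 and 17.5 TPM. The adjusted p was at least 0.395 in the 4 comparisons, with log2 fold changes from -0.43 in Ha vs. Hb to 0.58 in Hb vs. Lb. Without Hb2 these were -0.05 and 0.27, and its interaction of 0.32 (adjusted p = 0.797) was 0.04.

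The 5p product ssc-miR-296-5p had 3.32, 2.13 and 3.89 TPM in Ha and 4.58, 0.545 and 2.45 TPM in Hb. In La it had 4.54, 3.03 and 4.38 TPM and in Lb 6.82, 3.99 and 5.79 TPM. The highest level was in Lb1 and the lowest, from 5 counts, in Hb2, and Hb1 lay within the range of Lb. Between Hb and Lb the log2 fold change was 1.01 (SE 0.487, edgeR QL unadjusted p = 0.0589, adjusted p = 0.249). Without Hb1 it was 1.49 (unadjusted p = 0.0138) and without Lb2 1.19 (0.0382), which are calls at the thresholds of the study. Without Hb2 it was 0.65 (adjusted p = 0.389). From Ha to Hb it was -0.33 (adjusted p = 0.637), and 0.09 without Hb2, and the interaction was 0.56 (0.674), and 0.23 without Hb2. Its near copy miR-296-x had 15 counts in Ha and 2 in Hb, against 21 in La and 14 in Lb, and its log2 fold change from Ha to Hb of -2.28 had an unadjusted p of 0.0629 and an adjusted p of 0.132. It was called there with all 12 libraries in 1 fit (-2.30, unadjusted p = 0.0282). Without Hb1, where both remaining Hb libraries have 0 counts, it was called in Ha vs. Hb (unadjusted p = 0.0200) and in Hb vs. Lb (unadjusted p = 0.0345).

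In contrast to miR-335, the 3p arm of miR-296 was the more abundant in every library. The log2 ratio of 5p to 3p counts averaged -5.51 ± 0.357 (SD, n = 3) in Ha and -6.01 ± 0.915 in Hb, and in LC boars -5.18 ± 0.215 at 30 days and -5.10 ± 0.317 at 120 days. Between the ages it differed by -0.21 (exact permutation p = 0.63). LC boars had a ratio 0.62 above that of HZ boars on the log2 scale (exact two-sided permutation of breeds within ages, p = 0.03, adjusted p = 0.09 over 6 tests). The same exact permutation gave 0.36 (p = 0.06) without Hb2, and p was also above 0.05, at 0.055 to 0.115, without any 1 of Ha2, La1, La3, Lb1, Lb2 and Lb3.

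The last entry assigned to GNAS by its name, miR-298-x, was near the floor. In HZ boars it was counted 10, 19 and 6 times at 30 days and 9, 10 and 6 times at 120 days, and in LC boars 3, 10 and 16 times and 15, 12 and 13 times. The HZ means were 1.14 ± 0.711 TPM (SD, n = 3) and 1.025 ± 0.227, and the LC means 0.684 ± 0.370 and 1.14 ± 0.134. The libraries of all other pairs of groups compared overlapped, and those of Lb lay above those of La by TPM but not on the TMM scale (log2 fold change 0.50, SE 0.477, edgeR QL adjusted p = 0.440). The log2 fold change in Ha vs. Hb was 0.00 (SE 0.602), a precision that leaves changes in either direction undetected at this depth, and it was -0.27 without Hb2, -0.34 without Ha3 and 0.63 without Ha2. In Hb vs. Lb it was -0.20, and 0.17 without Hb2. In Ha vs. La it was -0.59 (edgeR QL adjusted p = 0.562), with 0.004 without Ha2 and -0.91 without Ha3. The value of La vs. Lb fell to 0.13 without La1. The interaction was 0.46 (adjusted p = 0.850), with 0.81 without Hb2, 0.08 without La1 and the opposite sign, -0.18, without Ha2.

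The interaction of breed and age passed the adjusted test for 0 of the 10 miRNAs, against 1.38% of all. An unadjusted p under 0.05 in this interaction was given by edgeR for 3 of the 10, namely miR-483-y, ssc-miR-335 and miR-335-x, and for 21.1% of all miRNAs tested. It was lost for ssc-miR-335 with scaling by library size (0.208) and for miR-335-x without Hb3 (0.0871).

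For the 4 miRNAs whose mean reached 10 TPM, the listed miRNAs most like them across the 12 libraries were found by the root mean square difference of centred log2(TPM + 1) values. The smaller this distance, the more alike the profiles. For ssc-miR-296-3p these were let-7-y (0.159), miR-151-x (0.160) and ssc-miR-505 (0.169). For ssc-miR-335 they were ssc-miR-15b (0.190), ssc-miR-1271-5p (0.192) and ssc-let-7i-3p (0.201). The profile of miR-335-y was less closely matched, by miR-107-z (0.355), miR-103-y (0.387) and miR-339-x (0.399), and that of miR-296-y was matched by miR-331-y (0.171), ssc-miR-339-5p (0.174) and miR-93-x (0.187). With another pseudocount or another minimum level, 2 or 3 of each 3 were the same.

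The miRNAs of another imprinted domain, the cluster between DLK1 and DIO3, were counted as a list. Of its 61 listed entries, 45 were called down in Ha vs. Hb (14.4% of all miRNAs), and 2 of 61 down in La vs. Lb (5.81%). Between the breeds, 7 of 60 were called down at 30 days (5.71%) and 16 of 60 up at 120 days (8.45%). Its median log2 fold changes in these comparisons were -1.84, -0.42, -0.53 and 0.97, beside those of miR-483-y at -2.79, -0.29, 0.25 and 2.69 and those of ssc-miR-335 at 0.04, -0.71, 0.52 and -0.33.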

How the data were processed

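Small RNA libraries of 12 testis samples were analysed, 3 in each of 4 groups assigned from the labels for breed and age. The authors filtered reads with fastp 0.18.0, removed tags of other non-coding RNAs and of exons, introns and repeats of Sscrofa 11.1, matched the rest to miRBase 22.1 and predicted further hairpins with miRDeep2. The authors deposited raw counts per miRNA and library, and TPM values, with 0.01 in place of a count of 0. Positions of predicted hairpins were taken from the deposited table, in which the span of m0045 (62) is 1 longer than its sequence (61), and those of genes from the RefSeq gene table of Sscrofa11.1. The meaning of the endings x, y and z is not given in the sources used here, and arms were assigned by sequence.

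Counts were tested with edgeR 4.0.16 in R 4.3.3 (TMM, glmQLFit and glmQLFTest, not robust), in a fit of the 6 libraries of each comparison over the 1278 to 1446 miRNAs with at least 1 count, and the interaction over all 12 libraries and 1452 miRNAs. The test within edgeR is not named in the methods. The SE was computed from the test, as the absolute log2 fold change over the square root of its F statistic. The edgeR test was checked on simulated counts for Ha vs. Hb. Arm ratios added 0.5 to each count, required a median of at least 10 counts in each arm and were tested by exact permutation. There were 400 arrangements, and 200 with a library left out.

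Every entry matching the numbers was reported, with values per library where a group mean reached 1 TPM. The members and lists were chosen with earlier results of these data known. Alternatives were scaling by library size, RLE normalization, DESeq2 1.42.0, limma 3.58.1 on log2(TPM + 1), robust estimation, filterByExpr, all libraries in 1 fit, the replicate number as a block, entries of an arm summed and each library left out. The arm ratio of miR-483 and the alternatives for arm ratios between the breeds were added after seeing the data. Target genes and RT-qPCR were not analysed here.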

Additional observations from a re-analysis of the deposited data

How the results depend on the processing

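No called result changed sign under an alternative. Scaling by library size moved the median log2 fold change of all miRNAs in Hb vs. Lb from 0.06 to 0.32. For the 10 miRNAs, 684 of the 739 values under an alternative kept their direction and their side of the adjusted threshold and 35 others moved without a call, while 14 lost and 6 gained an adjusted p under 0.05. For m0045-5p and m0066-5p, 10 values, all in Ha vs. Hb, lost it (8 of m0045-5p), 2 others moved and the rest were kept. The number of the 10 called in Ha vs. Hb, 2 as reported, was 1 with DESeq2, limma, filterByExpr and the summed entries of an arm, 3 with all 12 libraries in 1 fit, where miR-296-x was added, and 1 to 3 with a library left out. In La vs. Lb it was 0 as reported and 1, miR-335-y, with scaling by library size and with limma. In Ha vs. La it was 1 as reported and 0 with limma, filterByExpr and summed entries. In Hb vs. Lb it was 1 as reported, 2 with all 12 libraries in 1 fit and with summed entries, where ssc-miR-296-5p was added to miR-483-y, and 1 to 3 with a library left out. For the interaction, which was counted by an adjusted p under 0.05 and not at the thresholds of the study, the number was 0 as reported and 0 to 1 with a library left out, the 1 being miR-483-y without Hb1. With a library left out, the age difference of the miR-335 arm ratio ranged from -1.31 to -0.76 and that of miR-296 from -0.38 to 0.0518, the latter without Hb2, and the breed difference of the miR-296 ratio ranged from 0.36 to 0.79.

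The replicate numbers were not taken as pairs, since libraries of the same number deviated from their group means with correlations from -0.21 to 0.18. With the replicate number as a block, 1 of the 10 was called in Ha vs. Hb, where miR-335-x was lost, and 2 in Hb vs. Lb, where ssc-miR-296-5p was added, and the adjusted p of m0045-5p and m0066-5p in Ha vs. Hb rose to 0.0640 and 0.0659. The cause of these changes was not tested. Depth limits the entries under 1 TPM, whose calls rest on single counts, and the spread of Hb limits all comparisons that include it.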
